A study of Mus musculus with 16 samples.

Results

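The globin genes described here are the 3 alpha-like genes Hba-a1, Hba-a2 and Hba-x and the 4 beta-like genes Hbb-bs, Hbb-bt, Hbb-y and Hbb-bh1, which are 7 of the 25650 genes in the deposited count table. They were matched by gene symbol. The set was chosen by its rise in counts under interleukin-6 (IL-6) in 1 of the 2 cell lines, so its values in that comparison are given as a description with no test. The cells were Ba/F3 cells, a mouse line described as pro-B cells that grows on interleukin-3 (IL-3). There were 4 groups of 4 libraries, 16 in all. The gp130:IL-6R line carried gp130, the signalling chain of the IL-6 receptor, together with the IL-6 receptor itself, and the ChimP3V3 line carried a receptor labelled ChimP3V3:gp130Box1/2. Each line was sampled in medium alone and with 100 ng/ml of IL-6. The labels give no exposure time, no statement on IL-3 in either condition, and no word on whether a line was a single clone. Nothing in the labels says that the libraries of a group came from separate cultures, so p-values measure only the spread between these libraries, which may be technical. Between pairs of libraries of a group, chi-square per degree of freedom ran from 0.964 to 1.17, where counting error alone gives about 1. The source of this small spread was not tested.

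Haemoglobin, the oxygen carrier of red cells, is built from pairs of alpha-like and beta-like globin chains, each holding a haem group. In the mouse the alpha-like genes lie in 1 cluster and the beta-like genes in another, and within each cluster an embryonic set (Hba-x, Hbb-y, Hbb-bh1) is used first by primitive red cells of the yolk sac and an adult set (the remaining members) later. Both clusters are switched on by distant enhancers bound by GATA1 and its partners, and KLF1 binds CACCC letters in the adult beta promoters. Globin expression is a hallmark of the red cell lineage. On build GRCm39 the deposited table placed Hba-x at chr11:32226400-32228116 on the plus strand, followed by Hba-a1 at chr11:32233511-32234465 and Hba-a2 at chr11:32246489-32247298. The beta-like genes lay on the minus strand, with Hbb-y at chr7:103500956-103502423, Hbb-bh1 at chr7:103490844-103492371, Hbb-bs at chr7:103475741-103477303 and Hbb-bt at chr7:103461731-103463203. Mouse strains differ in their adult beta genes, and the labels do not state the form that these cells carry.

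The promoters are shown because all 7 genes were high in the same libraries, and because the letters bound by known globin regulators can be read in them. RefSeq tables of build GRCm38.p6 held promoters for 6 of the 7 genes, with none for Hbb-bh1. The 250 bases before the start are printed 5' to 3' on the gene's own strand for Hba-x (chr11:32276350-32276599, plus), Hba-a1 (chr11:32283422-32283671, plus), Hbb-y (chr7:103853208-103853457, minus), Hbb-bs (chr7:103827929-103828178, minus) and Hbb-bt (chr7:103813924-103814173, minus). Capitals mark every match on either strand to the letters of 3 motifs. The GATA motif was searched as AGATAA, and also in the form that opens with another base, written TGATAA. The KLF motif was searched as CACCC. The third motif, bound by nuclear factor Y, was CCAAT.
Hba-x: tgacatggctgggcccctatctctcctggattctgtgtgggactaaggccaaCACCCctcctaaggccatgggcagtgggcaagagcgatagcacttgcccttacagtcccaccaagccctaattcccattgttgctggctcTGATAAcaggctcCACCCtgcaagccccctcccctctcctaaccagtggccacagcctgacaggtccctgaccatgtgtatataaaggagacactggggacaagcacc
Hba-a1: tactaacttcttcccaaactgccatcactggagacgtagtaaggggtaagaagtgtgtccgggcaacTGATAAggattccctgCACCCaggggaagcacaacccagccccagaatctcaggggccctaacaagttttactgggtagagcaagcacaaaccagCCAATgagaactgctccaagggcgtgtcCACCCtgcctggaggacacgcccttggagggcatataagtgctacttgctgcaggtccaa
Hbb-y: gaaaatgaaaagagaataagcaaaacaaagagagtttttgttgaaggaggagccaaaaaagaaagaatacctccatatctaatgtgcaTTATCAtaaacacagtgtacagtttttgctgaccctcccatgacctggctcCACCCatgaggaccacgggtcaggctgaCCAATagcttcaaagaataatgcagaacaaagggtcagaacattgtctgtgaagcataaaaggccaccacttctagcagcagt
Hbb-bs: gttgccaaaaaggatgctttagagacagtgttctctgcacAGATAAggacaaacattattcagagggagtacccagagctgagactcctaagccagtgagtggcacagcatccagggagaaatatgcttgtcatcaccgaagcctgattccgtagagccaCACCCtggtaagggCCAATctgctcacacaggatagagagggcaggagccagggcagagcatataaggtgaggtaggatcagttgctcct
Hbb-bt: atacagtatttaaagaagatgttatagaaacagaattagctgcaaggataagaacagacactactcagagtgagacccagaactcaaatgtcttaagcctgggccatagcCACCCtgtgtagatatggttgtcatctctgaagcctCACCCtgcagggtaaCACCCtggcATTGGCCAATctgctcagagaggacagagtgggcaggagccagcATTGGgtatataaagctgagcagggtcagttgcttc

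Matches to the searched GATA motif, AGATAA or TGATAA, were found in 5 of the 6 promoters. Their first base was at -183 in Hba-a1, -186 in Hba-a2, -108 in Hba-x, -210 in Hbb-bs and -162 in Hbb-y, where the match is on the opposite strand. Neither form was found on either strand of the Hbb-bt window, though the shorter word GATA does occur there. Among 27025 mouse promoters of the same length, 17.0% held a match to either form of the GATA motif. CACCC was present in all 6 promoters, including -90 in Hbb-bs and -140, -104 and -89 in Hbb-bt, against 51.3% of all promoters. CCAAT was present in 5 of 6, at -76 in Hbb-bs and at -83 in Hbb-y, and was not among the letters of the Hba-x window, against 34.5% of all promoters. In Hbb-bt the match at -75 directly follows a match on the opposite strand at -80, without overlap. The STAT word TTCNNNGAA was found in Hbb-y alone among the 6, at -75, and in 7.18% of all promoters. The Hba-a1 and Hba-a2 promoters shared an unbroken run of 247 bases, whereas those of Hbb-bs and Hbb-bt were 77.4% identical over 239 aligned bases. These are matches of letters, and no binding was measured.

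Total counts per library ranged from 1275112 to 1650348, so a count of 0 in 1 library allows up to 1.82 to 2.35 CPM (counts scaled to the library total), counting error only. Levels below are CPM after TMM scaling, given as mean ± SD with n = 4 libraries per group. Each 3' read marks a transcript end, and no molecular identifiers were named. The label of the ChimP3V3 line was checked with Il6st, which encodes mouse gp130 and had 0 counts in all 8 ChimP3V3 libraries. Socs3, a direct target of IL-6 signalling through STAT3, rose 6.64-fold in gp130:IL-6R cells (edgeR adjusted p = 3.47e-23) and 5.22-fold in ChimP3V3 cells (adjusted p = 1.44e-15). Of 12 markers of pro-B cells, 4 had 0 counts in all 16 libraries, Rag1, Rag2 and Blnk among them, while Cd79b, a chain of the B cell receptor complex, was found in every group at means from 8.38 to 14.9 CPM. Other genes of the globin family were low or at 0. The theta genes Hbq1a and Hbq1b, which lie within the alpha cluster, had 9 and 2 counts in all, found under IL-6 in ChimP3V3 cells, and Hbb-bh2 and the muscle gene Mb had 0 counts.

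In medium the globin genes were already high in ChimP3V3 cells and near 0 in gp130:IL-6R cells. Summed over the 7 genes the level was 1533 ± 73.4 CPM in ChimP3V3 cells, with libraries from 1437 to 1611, and 1.34 ± 1.17 CPM in gp130:IL-6R cells, with libraries from 0 to 2.85. The globin genes took 0.157% ± 0.00706 of all counts in ChimP3V3 cells in medium. In bulk RNA, more cells that hold a transcript and more transcript per cell cannot be told apart.

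Hba-a1 and Hba-a2 encode the adult alpha chains. In ChimP3V3 cells in medium Hba-a1 had 677, 780, 793 and 668 counts and Hba-a2 had 869, 926, 884 and 836 counts in replicates 1 to 4. In gp130:IL-6R cells in medium the counts were 0, 0, 0 and 1 for Hba-a1 and 0, 2, 4 and 0 for Hba-a2. Every ChimP3V3 library was above every gp130:IL-6R library for both genes. The pooled ratio was 3034 for Hba-a1 (exact 95% interval 544 to 119864, counting error only, 2918 against 1 count) and 609 for Hba-a2 (280 to 1661, 3515 against 6 counts).

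Hbb-bs and Hbb-bt encode adult beta chains. Hbb-bs had 480, 517, 468 and 438 counts in ChimP3V3 cells in medium and 0 counts in all 4 gp130:IL-6R libraries, so its level was at least 659-fold higher, taking 3 counts over the gp130:IL-6R group as the limit that 0 allows. Hbb-bt had 90, 113, 102 and 93 counts against 0, 0, 0 and 1, a pooled ratio of 414 (73.8 to 16384). Again no library of 1 line reached the range of the other.

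The embryonic genes were lower, but were also found in ChimP3V3 cells in medium. Hbb-y, the embryonic epsilon-like beta gene, had 72, 75, 77 and 66 counts there. Hbb-bh1, an embryonic beta-like gene used earliest in yolk sac red cells, had 6, 17, 15 and 11 counts. Hba-x, the embryonic zeta gene, had 1, 4, 1 and 4 counts. All 3 had 0 counts in every gp130:IL-6R library. The levels were at least 100.5-fold higher for Hbb-y, 17.0-fold for Hbb-bh1 and 3.47-fold for Hba-x, against 3 counts over the group. The exact lower 95% limits of these ratios, counting error only, were 81.2 for Hbb-y, 13.3 for Hbb-bh1 and 2.33 for Hba-x.

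Over all genes, 31.7% were called higher and 33.4% lower in medium in the ChimP3V3 line, relative to the gp130:IL-6R line, at an adjusted p under 0.05, and in 27.7% of genes all 4 ChimP3V3 libraries lay above all 4 gp130:IL-6R libraries. A call of this kind was therefore common, and the size of the globin difference is given by the ratios above. The ChimP3V3 medium libraries in this comparison were the low side of the comparison from which the genes were proposed. All 7 genes passed the filter on low counts, and 0 of them would have passed in the gp130:IL-6R libraries alone, so their number carries no weight and no p-values are given for them between the lines.

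**Figure D1:**
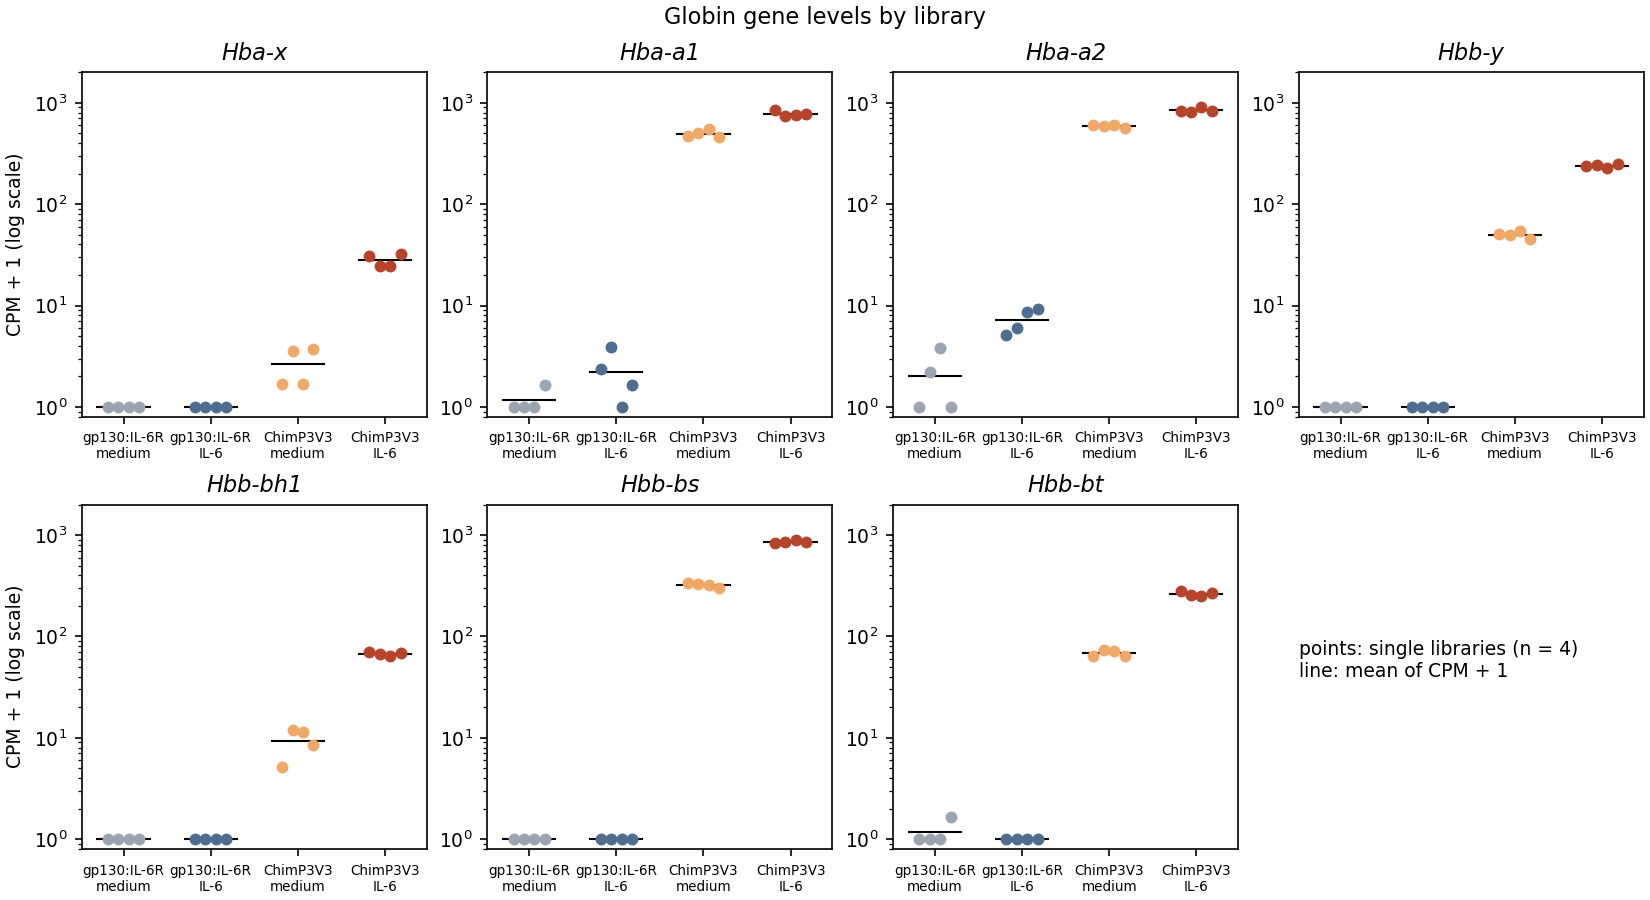
Level of each globin gene in each library, as CPM + 1 on a log axis, with 1 point per library and a line at the mean of 4 libraries. In ChimP3V3 cells the IL-6 libraries lie above the medium libraries for all 7 genes, and the gp130:IL-6R libraries stay below 10 CPM.

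Under IL-6 the globin genes rose further in ChimP3V3 cells, and the embryonic genes by the larger factors. The summed level reached 3079 ± 53.7 CPM, with libraries from 3001 to 3119, and 0.302% ± 0.00582 of all counts. These are the values by which the genes were proposed and carry no test. All 7 genes had every IL-6 library above every medium library, where 15.9% of all genes tested did. Over all genes 16.2% were called higher and 11.4% lower.

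The adult alpha genes rose least. Hba-a1 had 1164, 1004, 969 and 970 counts under IL-6 and went from 493 ± 40.5 to 780 ± 43.7 CPM, a log2 change of 0.66 (SE 0.0429) or 1.58-fold. Hba-a2 had 1157, 1098, 1161 and 1042 counts and went from 593 ± 18.3 to 848 ± 36.6 CPM, a log2 change of 0.51 (SE 0.0363) or 1.43-fold. For both genes the lowest IL-6 library was above the highest medium library.

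The adult beta genes rose more. Hbb-bs had 1147, 1145, 1153 and 1070 counts under IL-6 and went from 321 ± 16.6 to 859 ± 27.1 CPM, a log2 change of 1.42 (SE 0.0377) or 2.67-fold. Hbb-bt had 385, 344, 323 and 333 counts and went from 67.1 ± 4.99 to 263 ± 12.5 CPM, a log2 change of 1.97 (SE 0.0686) or 3.91-fold. The share of Hbb-bt in the summed counts of this pair went from 17.3% ± 1.01 to 23.5% ± 1.35, with libraries from 15.8% to 17.9% in medium and from 21.9% to 25.1% under IL-6. The split of reads within the pair is uncertain, as described below for near-identical genes.

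The embryonic genes rose most. Hbb-y had 324, 326, 289 and 305 counts under IL-6 and went from 49.0 ± 3.45 to 236 ± 9.43 CPM, a log2 change of 2.27 (SE 0.0748) or 4.82-fold. Hbb-bh1 had 96, 88, 81 and 85 counts and went from 8.22 ± 3.09 to 66.5 ± 2.97 CPM, a log2 change of 2.99 (SE 0.182) or 7.97-fold. Hba-x had 41, 32, 30 and 39 counts and went from 1.67 ± 1.13 to 27.0 ± 4.09 CPM, a log2 change of 3.93 (SE 0.347) or 15.3-fold. For Hba-x the medium value rests on 10 counts in all, and the exact 95% interval of its pooled ratio ran from 8.44 to 34.1, counting error only.

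The order of the rises was the reverse of the order of the CPM levels in medium. The counts of abundant genes grew less than in proportion to the library total: within groups, the log-log slope of counts on the total was 0.645 (SE 0.0409) over 227 genes with a mean count over 800, 0.936 (SE 0.0140) over 960 genes from 300 to 800, and 1.13 (SE 0.0140) over 2832 genes from 100 to 300. Below that range the slope was 1.26 (SE 0.0311) over 5120 genes from 10 to 100 and 1.51 (SE 0.130) over 1747 genes from 1 to 10, so counts of low genes grew more than in proportion. The highest count of any gene in any library was 2807. Genes were grouped for these slopes by their mean count over all 16 libraries. Hba-a1, Hba-a2 and Hbb-bs had ChimP3V3 IL-6 counts over 800, but their means over all 16 libraries, gp130:IL-6R libraries near 0 included, were lower. Which slope applies to their IL-6 counts was not determined. Hbb-bh1 and Hba-x had counts in the ranges of the highest slopes. The part of these slopes in the order of the folds was not tested.

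**Figure D2:**
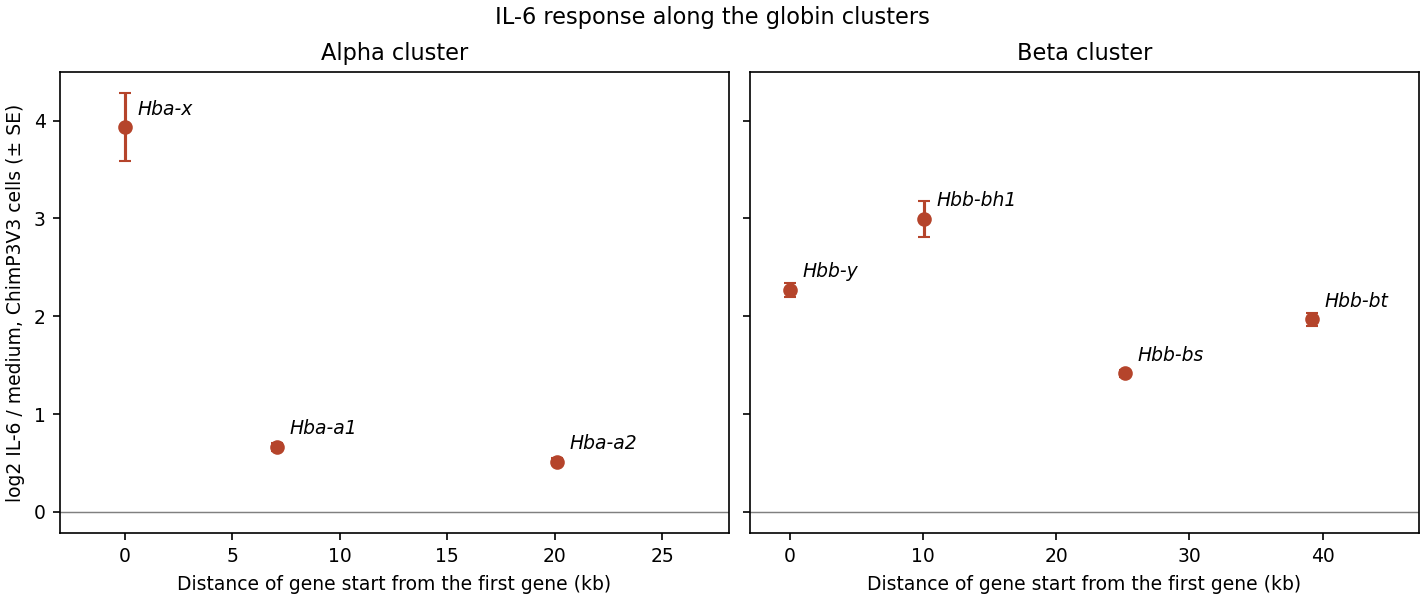
Log2 change under IL-6 in ChimP3V3 cells, with its standard error, against the distance of each gene from the start of the embryonic gene at the end of its cluster (kb). Hba-x, at 3.93, stands above Hba-a1 and Hba-a2, and Hbb-bh1, at 2.99, is the highest of the beta-like genes.

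Because the genes rose by different factors, the make-up of the globin counts changed. The embryonic genes held 3.84% ± 0.171 of all globin counts in ChimP3V3 cells in medium, from 3.60% to 3.97%, and 10.7% ± 0.530 under IL-6, from 9.99% to 11.2%. Within the beta-like genes the embryonic share went from 12.8% ± 0.775 to 21.3% ± 0.823, or 21.7% without IL-6 replicate 3, and within the alpha-like genes Hba-x went from 0.156% ± 0.109 to 1.63% ± 0.231. The alpha-like share of globin counts fell from 70.9% ± 0.660, with libraries from 70.3% to 71.7%, to 53.7% ± 0.811, with libraries from 52.9% to 54.8%. None of these shares overlapped between the groups. The share of Hba-a1 in the adult alpha pair did overlap, at 45.3% ± 1.55 and 47.9% ± 1.91. All of these shares rest on genes of unequal abundance and hence on the slopes given above, whose part in them was not tested.

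**Figure D3:**
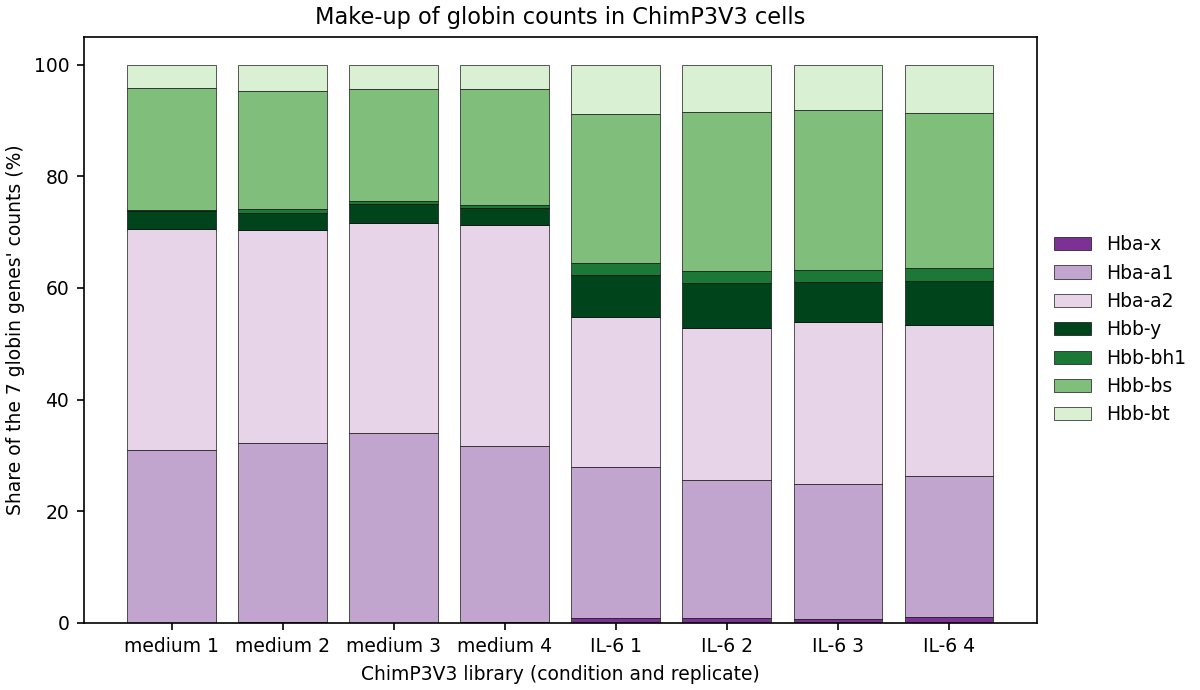
Share of each gene in the summed counts of the 7 globin genes (percent), 1 bar per ChimP3V3 library. The alpha-like genes fall from 70.3% to 71.7% of the bar in medium to 52.9% to 54.8% under IL-6, and the dark green bands of Hbb-y and Hbb-bh1 widen.

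Levels of different genes were set side by side as CPM per kb of annotated GENCODE M21 transcript, since the deposited TPM were not divided by length. With a 3' kit, reads do not scale with length, so this order depends on the choice of scale. In medium the order per kb in ChimP3V3 cells was Hba-a2 (1071 ± 33.1), Hba-a1 (705 ± 58.0), Hbb-bs (511 ± 26.4), Hbb-bt (95.4 ± 7.10), Hbb-y (77.4 ± 5.44), Hbb-bh1 (13.4 ± 5.04) and Hba-x (2.08 ± 1.41), and no neighbours in this order had overlapping libraries. Under IL-6 Hbb-bs (1367 ± 43.1) moved above Hba-a1 (1116 ± 62.5), with Hba-a2 still highest (1530 ± 66.1). Hbb-bt (374 ± 17.7) and Hbb-y (374 ± 14.9) then overlapped, followed by Hbb-bh1 (108 ± 4.84) and Hba-x (33.7 ± 5.11). By summed counts among all genes, Hbb-bs went from rank 591 to rank 110 and Hba-a2 from rank 194 to rank 112.

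In gp130:IL-6R cells the globin counts came from the adult alpha genes, apart from 1 count of Hbb-bt, and Hba-a2 rose under IL-6. Hba-a2 had 0, 2, 4 and 0 counts in medium and 6, 7, 11 and 13 counts under IL-6, so the groups did not overlap. The level went from 1.01 ± 1.35 to 6.23 ± 1.99 CPM, a log2 change of 2.59 (SE 0.540) with an edgeR adjusted p of 9.75e-05. That p-value has a limit, since Hba-a2 entered the fit only through its ChimP3V3 counts. In the gp130:IL-6R libraries alone, 0 of the 7 genes passed the filter. The spread used by the test was likewise estimated with the ChimP3V3 libraries, where counts were far higher. The pooled ratio of 37 to 6 counts was 6.45, with an exact 95% interval from 2.70 to 18.7, counting error only. In this comparison 25.7% of all genes were called higher and 24.3% lower, and 22.7% had all IL-6 libraries above all medium libraries.

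Hba-a1 had 0, 0, 0 and 1 counts in medium and 2, 4, 0 and 1 under IL-6. Its groups overlapped, and its log2 change of 2.36 (SE 1.22) did not pass the test (edgeR adjusted p = 0.106), with a ratio of 7.32 that could lie anywhere from 0.941 to 330. With the 2 genes summed, the log2 change was 2.63 (SE 0.512, adjusted p = 3.63e-05). The limit given for Hba-a2 holds for Hba-a1, and the summed value is made of these same genes. Hbb-bt had 1 count in medium and 0 under IL-6. Hbb-bs, Hbb-y, Hbb-bh1 and Hba-x had 0 counts in all 8 libraries of this line, so a change in them was not detectable at this depth. None of the 44 globin counts under IL-6 came from an embryonic gene, which allows an embryonic share of up to 8.04% (exact 95% interval). In ChimP3V3 cells under IL-6 that share was 10.7%, with an exact interval from 10.2% to 11.2% over 16201 counts. All 44 counts in gp130:IL-6R cells were alpha-like, however. Among alpha-like counts alone, Hba-x held 1.63% in ChimP3V3 cells under IL-6 (exact interval 1.38% to 1.92%), which is below the 8.04%.

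Under IL-6 the lines still differed by large factors. In ChimP3V3 cells Hba-a2 was 135-fold above its gp130:IL-6R level (97.7 to 192) and Hba-a1 was 657-fold higher (318 to 1634). Against 3 counts over the gp130:IL-6R group, Hbb-bs was at least 1684-fold higher, Hbb-bt at least 517-fold, Hbb-y at least 464-fold, Hbb-bh1 at least 131-fold and Hba-x at least 53.0-fold. The exact lower 95% limits, counting error only, were 1369 for Hbb-bs, 420 for Hbb-bt, 377 for Hbb-y, 106 for Hbb-bh1 and 42.5 for Hba-x. For comparison, 31.2% of all genes were called higher and 31.6% lower between the lines under IL-6, and 27.2% had all ChimP3V3 libraries above all gp130:IL-6R libraries. The IL-6 response of Hba-a2 on the log2 scale was smaller in ChimP3V3 cells, with a difference of -2.07 (SE 0.552), and the medium levels it started from rested on 3515 counts in ChimP3V3 and 6 counts in gp130:IL-6R cells.

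Reads of near-identical genes can be assigned to either. The annotated transcripts of Hba-a1 and Hba-a2 were 99.8% identical over 538 aligned bases, and 201 of 301 windows of 100 bases in the last 400 bases of Hba-a1 also occurred in Hba-a2. Hbb-bs and Hbb-bt were 93.1% identical, with 142 of 301 windows shared. Other pairs were 71.8% to 78.5% identical and shared 0 windows. The split within each adult pair is therefore uncertain, while the embryonic genes are set apart by sequence. With the copies summed, the IL-6 change in ChimP3V3 cells was 0.58 on the log2 scale (SE 0.0321) for Hba-a1 with Hba-a2 and 1.53 (SE 0.0334) for Hbb-bs with Hbb-bt. Hba-a1 made up 48.0% of the adult alpha counts in ChimP3V3 cells under IL-6 (exact 95% interval 46.9% to 49.0%) and 15.9% in gp130:IL-6R cells under IL-6, where 7 of 44 counts gave an interval from 6.64% to 30.1%.

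The neighbours of the clusters did not show levels of this kind. Within 100 kb of a globin gene lay 22 other genes, of which 3 passed the filter, all beside the alpha cluster. Nprl3, whose introns hold the alpha globin enhancers and which encodes a regulator of mTORC1, differed between the lines under IL-6 by 0.83 on the log2 scale (SE 0.170, edgeR adjusted p = 4.52e-05), with ChimP3V3 cells at 44.7 ± 13.6 against 24.9 ± 4.69 CPM. Mpg, a DNA glycosylase gene that overlaps Nprl3 on the other strand, differed by 0.77 (SE 0.147, adjusted p = 1.84e-05), at 61.9 ± 9.54 against 36.6 ± 4.26 CPM. Their IL-6 responses within ChimP3V3 cells, 0.27 for Nprl3 and 0.06 for Mpg, did not pass the test (adjusted p = 0.210 and 0.770). The sources used here do not state whether counting used strand, so counts of these 2 genes cannot be separated with certainty. Snrnp25, a spliceosome gene, fell under IL-6 in gp130:IL-6R cells by 0.31 (SE 0.0783, adjusted p = 0.00103). Mpg fell in the same cells by 0.44 (adjusted p = 0.0132), which was lost without replicate 1 in medium or replicate 1 under IL-6 (adjusted p = 0.103 and 0.0598). In ChimP3V3 cells Snrnp25 fell by 0.27 (adjusted p = 0.0134), which was lost without replicate 2 or 3 in medium (adjusted p = 0.0680 and 0.0604). The olfactory receptor genes around the beta cluster had 0 to 4 counts each over all 16 libraries.

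Read beside the globin genes were 3 lists of genes tied to globin expression or to red cells: haem synthesis, globin gene regulators and red cell proteins. The regulators include repressors as well as activators. Their genes were tested singly across all genes, and the lists were not matched to all genes on abundance.

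More of the globin gene regulators were called higher than lower in ChimP3V3 cells, and more rose than fell in each line under IL-6, but the erythroid activators Gata1 and Klf1 fell in gp130:IL-6R cells. Of 21 regulators tested, 11 rose (52.4%) and 4 fell (19.0%) under IL-6 in gp130:IL-6R cells, and 11 rose and 0 fell in ChimP3V3 cells, with median log2 changes of 0.22 and 0.24 against 0.01 and 0.03 over all genes. Over all genes tested, the shares that rose and fell were 25.7% and 24.3% in gp130:IL-6R cells and 16.2% and 11.4% in ChimP3V3 cells. Gata1, which encodes a factor that binds GATA motifs, went from 54.2 ± 5.10 to 22.98 ± 1.82 CPM in gp130:IL-6R cells (log2 -1.23, adjusted p = 6.87e-11). In ChimP3V3 cells Gata1 was at 87.7 ± 5.42 CPM in medium and 78.8 ± 8.08 CPM under IL-6. Klf1, which binds CACCC letters, went from 55.0 ± 8.67 to 19.3 ± 3.70 CPM in gp130:IL-6R cells (log2 -1.51, adjusted p = 6.56e-12) and was 123 ± 5.67 and 138 ± 10.7 CPM in ChimP3V3 cells. The responses of the lines differed by 1.09 for Gata1 (edgeR interaction, adjusted p = 7.27e-07) and by 1.67 for Klf1 (adjusted p = 7.76e-11).

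Also falling in gp130:IL-6R cells were Lmo2, which encodes a bridging protein of the GATA1 complex (-0.44, adjusted p = 1.13e-06), and Chd4, a remodelling enzyme (-0.18, adjusted p = 0.000181). Among those that rose in both lines were Cbfa2t3, a corepressor of the TAL1 complex (1.39 in gp130:IL-6R and 0.66 in ChimP3V3 cells, adjusted p = 3.30e-22 and 7.37e-16), Myb, a progenitor factor that restrains erythroid maturation (0.67 and 0.37, adjusted p = 3.90e-18 and 1.06e-09), Bach1, a haem-sensing repressor (1.16 and 0.39, adjusted p = 1.48e-17 and 0.000365), and Gfi1b, an erythroid and megakaryocyte repressor (1.99 and 0.46, adjusted p = 3.11e-12 and 0.00201). Each of these 4 rose by more in gp130:IL-6R cells, with differences from -0.29 for Myb to -1.53 for Gfi1b and adjusted p-values of at most 9.95e-05. Nfe2, an activator that binds globin enhancers, rose in ChimP3V3 cells from 252 ± 17.1 to 345 ± 11.7 CPM (0.46, adjusted p = 2.75e-09) and its change of -0.14 in gp130:IL-6R cells did not pass the test (adjusted p = 0.0772), and the responses differed by 0.60 (adjusted p = 6.97e-07). Zfpm1, the partner of GATA1, rose in ChimP3V3 cells by 0.41 (adjusted p = 1.33e-07). For the difference of responses, 5 regulators were higher and 5 lower, beside 12.4% and 11.5% of all genes.

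In medium 13 of the 21 regulators were higher in ChimP3V3 cells (61.9%) and 4 lower (19.0%), with a median log2 difference of 0.66 against -0.00 over all genes, of which 31.7% were higher and 33.4% lower. Tal1, a core activator of erythroid genes, was 804 ± 33.4 against 313 ± 7.79 CPM (1.36, adjusted p = 3.03e-29). Sox6, which silences embryonic beta-like globin in the mouse, was 121 ± 6.24 against 12.0 ± 4.20 CPM (3.33, adjusted p = 1.30e-24), and was 132 ± 3.30 CPM under IL-6. Lmo2 went the other way, at 9.69 ± 3.11 against 143 ± 4.97 CPM (-3.88, adjusted p = 1.18e-27). Gata2, the progenitor counterpart of Gata1, was lower by 0.52 (adjusted p = 4.71e-15), and so was Spi1, an antagonist of GATA1, by 0.72 (adjusted p = 4.68e-07). Bcl11a, the repressor of embryonic globin genes, had 0 counts in all 16 libraries. Under IL-6, 13 regulators were higher in ChimP3V3 cells and 6 lower, beside 31.2% and 31.6% of all genes.

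Haem synthesis genes fell in gp130:IL-6R cells more often than they rose, and few moved in ChimP3V3 cells. Of 14 tested, 6 fell (42.9%) and 2 rose (14.3%) in gp130:IL-6R cells, with a median log2 change of -0.13, where 24.3% of all genes fell and 25.7% rose. Alad, an enzyme of the pathway (-0.65, adjusted p = 2.79e-06), and Abcb10, a mitochondrial carrier needed for haem (-0.70, adjusted p = 1.22e-06), were among those that fell. Flvcr1, the haem exporter, rose by 0.80 (adjusted p = 1.28e-09). Alas1, the housekeeping form of the enzyme that starts the pathway, rose by 0.44 (adjusted p = 0.0131), a call lost without replicate 2 of either gp130:IL-6R group (adjusted p = 0.0684 and 0.0611).

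In ChimP3V3 cells Abcb10 rose from 169 ± 11.6 to 223 ± 21.2 CPM (0.40, adjusted p = 2.35e-06). Alad rose by 0.27 with an adjusted p of 0.0481, a call lost in 12 of 16 fits that each left out 1 library. Alas1 fell by 0.40 (adjusted p = 0.0150), which was lost without replicate 3 in medium or replicate 2 under IL-6 (adjusted p = 0.0607 and 0.0622). The responses differed between the lines for 6 genes, among them higher in ChimP3V3 cells for Abcb10 (1.10, adjusted p = 8.03e-09), Alad and Urod and lower for Flvcr1 and Alas1. By direction 4 were higher (28.6%) and 2 lower (14.3%), beside 12.4% and 11.5% of all genes. In medium 5 haem synthesis genes were higher and 3 lower in ChimP3V3 cells, with Abcb10 higher by 1.26 (adjusted p = 1.42e-17), and under IL-6 there were 7 higher and 3 lower. The shares of all genes were 31.7% and 33.4% in medium and 31.2% and 31.6% under IL-6. Alas2, the erythroid form of the starting enzyme, was at 0.170 ± 0.340 CPM in ChimP3V3 cells in medium and 0.367 ± 0.423 CPM under IL-6, and at 0 in gp130:IL-6R cells. Alas2, Bcl11a and the genes listed below at 0 were chosen for mention after their values were seen.

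Red cell protein genes were mostly higher in ChimP3V3 cells. In medium 13 of 17 were higher (76.5%) and 4 lower (23.5%), with a median log2 difference of 0.79, where 31.7% of all genes were higher and 33.4% lower. Rhag, an ammonia channel of the Rh complex, was at 122 ± 7.01 CPM in ChimP3V3 cells and 0 in gp130:IL-6R cells in medium. Kel, a blood group protease, was at 21.2 ± 2.05 CPM against 0. The membrane skeleton gene Add2 was at 29.7 ± 3.57 against 0.774 ± 0.751 CPM. Rhag, Kel and Add2 passed the filter only through their ChimP3V3 counts, so no p-values are given for them between the lines. The counts of this list between the lines, in medium and under IL-6, include genes that passed only through 1 line and carry less weight for it. Among those lower in ChimP3V3 cells were Tfr2, a second transferrin receptor, by 1.91 (adjusted p = 4.89e-11), Xk and Tspo2.

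Under IL-6 in ChimP3V3 cells 6 of 17 red cell protein genes rose (35.3%) and 1 fell, and in gp130:IL-6R cells 2 rose (11.8%) and 1 fell. The shares of all genes that rose and fell were 16.2% and 11.4% in ChimP3V3 cells and 25.7% and 24.3% in gp130:IL-6R cells, so the share that rose in gp130:IL-6R cells was below that of all genes. Kel rose in ChimP3V3 cells from 21.2 ± 2.05 to 40.0 ± 4.08 CPM (0.91, adjusted p = 3.12e-05), and Gypc, glycophorin C, rose from 106 ± 4.71 to 136 ± 14.1 CPM (0.35, adjusted p = 0.000203). Tfrc, the transferrin receptor that brings iron to red cell precursors, fell by 0.32 (adjusted p = 1.81e-09). In gp130:IL-6R cells the glucose transporter gene Slc2a1 rose by 0.61 (adjusted p = 1.11e-11), Tfr2 rose by 0.89 (adjusted p = 1.13e-07), and Tfrc fell by 0.11 (adjusted p = 0.00936), a call lost without IL-6 replicate 4 (adjusted p = 0.0617). The responses differed for 4 genes, among them higher in ChimP3V3 cells for Gypc, by 0.50 (adjusted p = 0.00683), and lower for Slc2a1 and Tfrc. By direction 2 were higher (11.8%) and 2 lower (11.8%), close to the 12.4% and 11.5% of all genes. Under IL-6, 11 were higher and 4 lower in ChimP3V3 cells, beside 31.2% and 31.6% of all genes. Slc4a1, band 3 of the red cell membrane, and Car1, a red cell carbonic anhydrase, had 0 counts in all 16 libraries, and Ahsp, the alpha globin chaperone, was not analysed here. Counting the 3 lists together, the number of genes called lower in ChimP3V3 cells under IL-6 was 2, which became 1 without medium replicate 3 and 4 without IL-6 replicate 3.

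**Figure D4:**
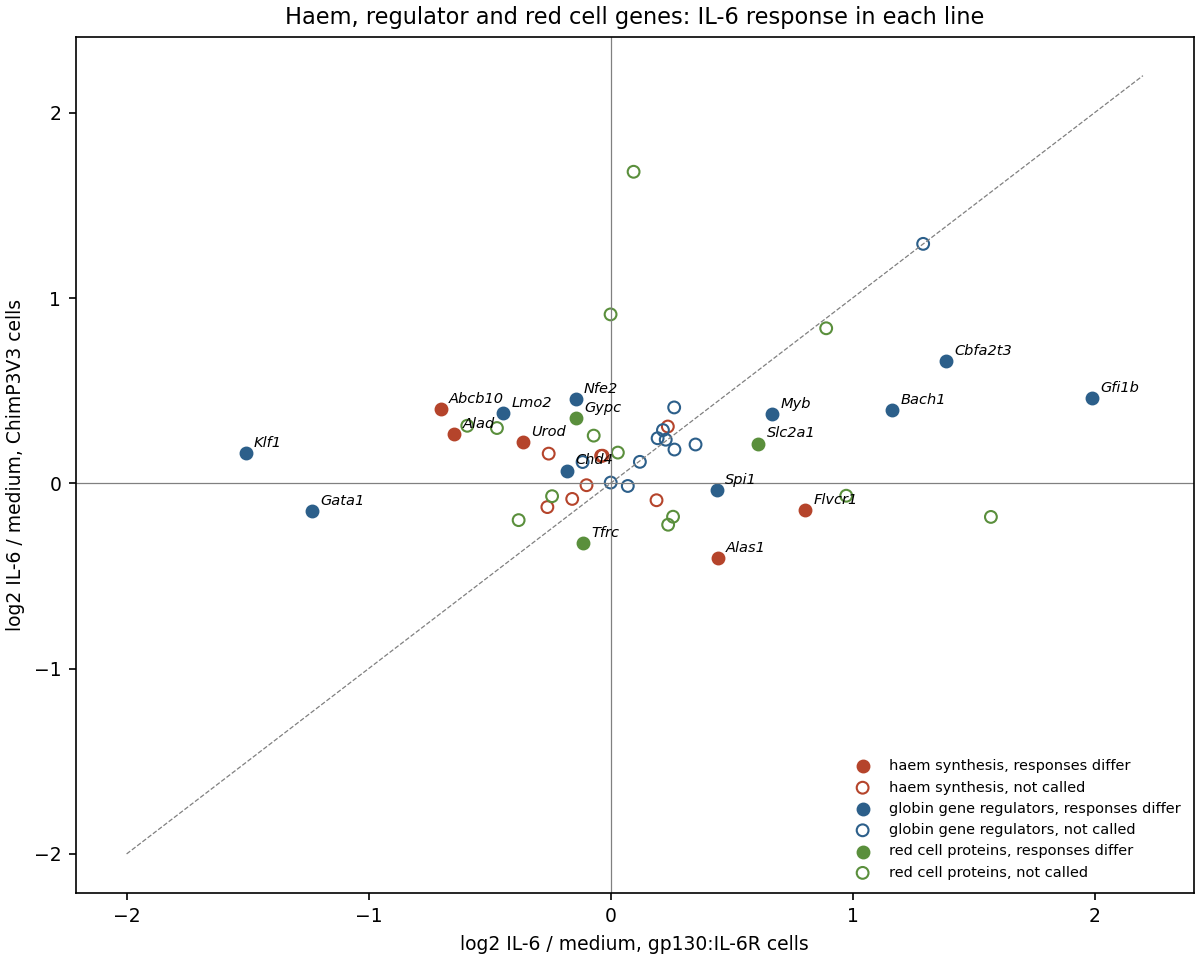
Log2 IL-6 response of the reported haem synthesis, regulator and red cell protein genes in gp130:IL-6R cells (x axis) and in ChimP3V3 cells (y axis), with a dashed line of equal responses. Filled points are genes whose responses differed at an adjusted p under 0.05. Gata1 and Klf1 lie far to the left, at -1.23 and -1.51 on the x axis and near 0 on the y axis.

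Markers of other cell types moved with the globin genes in part. The 11 mast cell and basophil markers summed to 7.22 to 10.8 CPM in medium and 6.93 to 12.0 CPM under IL-6 in gp130:IL-6R cells, and to 23.1 to 35.4 and 82.5 to 97.0 CPM in ChimP3V3 cells. This was carried by Cpa3, a mast cell protease (16.6 ± 3.96 to 59.6 ± 5.26 CPM in ChimP3V3 cells, adjusted p = 1.62e-11), and Fcer1a, the IgE receptor alpha chain (4.08 ± 2.00 to 18.1 ± 3.83 CPM, adjusted p = 2.14e-06), while Mcpt8, Tpsb2, Tpsab1 and Cma1 were at 0 in all libraries. The 10 megakaryocyte markers summed to 54.9 to 71.0 and 111 to 126 CPM in gp130:IL-6R cells, mainly Itga2b. In ChimP3V3 cells their sums were 216 to 246 and 275 to 305 CPM, mainly Itga2b and Pf4. Pf4 had 0 and 1 counts in the gp130:IL-6R groups. Its level in ChimP3V3 cells was 49.7 ± 7.21 CPM before and 49.9 ± 3.41 CPM with IL-6, while Itga2b went from 169 ± 9.52 to 229 ± 10.6 CPM. Vwf and Treml1 were at 0 in both lines. The 12 pro-B markers summed to 17.4 to 31.2 and 26.3 to 35.9 CPM in gp130:IL-6R cells and to 15.8 to 21.8 and 20.1 to 23.3 CPM in ChimP3V3 cells. In medium both tested pro-B markers were lower in ChimP3V3 cells. Cd79a was at 0.160 ± 0.321 against 4.91 ± 2.19 CPM and Cd79b at 8.76 ± 1.24 against 14.9 ± 2.93 CPM (edgeR adjusted p = 0.00539). Among markers too low to be tested, Vpreb1 went the other way, at 3.87 ± 1.25 against 1.64 ± 1.25 CPM. So did Cd24a (4.02 ± 1.31 against 2.81 ± 1.03) and Ebf1 (1.71 ± 0.914 against 0.956 ± 0.832). Pax5 was lower (0 against 0.488 ± 0.627). The 9 macrophage markers summed to 17.7 to 32.8 and 22.9 to 51.1 CPM in gp130:IL-6R cells and to 5.51 to 35.9 and 31.2 to 41.2 CPM in ChimP3V3 cells, with C1qc and Marco at 0. Among them Adgre1, which encodes F4/80, was at 0.178 ± 0.357 CPM in gp130:IL-6R cells and 11.0 ± 4.37 CPM in ChimP3V3 cells in medium. Lyz2, a lysozyme gene, rose under IL-6 in gp130:IL-6R cells from 3.28 ± 1.36 to 12.1 ± 2.67 CPM (adjusted p = 3.00e-05) and was at 0.342 ± 0.395 and 0.402 ± 0.804 CPM in ChimP3V3 cells. Fcer1a and Lyz2 passed the filter only through the IL-6 group in which they were high, which limits their p-values. Cd79a and Adgre1 passed only through 1 line, so no p-values are given for them between the lines. The part of these markers in the globin levels was not tested.

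Genes whose levels followed the summed globin level most closely were sought among 9125 genes with a mean of at least 5 CPM. Over the 16 libraries, Pearson's r of log2(CPM + 1) was 0.995 for Ccni, 0.994 for Phlpp1, Dock10 and Rgl1, and 0.993 for Rab32 and Trim59. These libraries share the difference between the lines, and 330 genes had an r over 0.95, so the values are a description. Within the 8 ChimP3V3 libraries the r was 0.952 for Ccni, 0.973 for Phlpp1, 0.661 for Dock10, 0.860 for Rgl1, 0.890 for Rab32 and 0.888 for Trim59. These 8 libraries in turn share the difference between medium and IL-6 by which the globin genes were chosen. Those values too are a description. Phlpp1, a phosphatase gene, stood at 31.5 ± 4.07 and 58.1 ± 8.27 CPM in gp130:IL-6R cells and at 236 ± 6.15 and 294 ± 12.5 CPM in ChimP3V3 cells, in medium and under IL-6. Trim59 was at 0 CPM in gp130:IL-6R cells in medium and at 2.36 ± 0.535 CPM under IL-6, against 54.3 ± 4.45 and 74.1 ± 5.52 CPM in ChimP3V3 cells.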

How the data were processed

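RNA of 16 libraries of Ba/F3 cells was sequenced with the Lexogen QuantSeq 3' forward kit from 100 ng of total RNA, per the labels' protocols. The authors made counts per gene with CLC Genomics Workbench 23.0.4 on build GRCm39 and annotation of Ensembl release 107, per the file headers. The sources used here do not state the strand setting, the filtering of reads or how duplicate reads were treated. The deposited TPM and RPKM values were identical to counts scaled to each library total (CPM), to within 6.5e-11, so neither is per length. The order of levels, planned on deposited TPM, was therefore computed per kb of transcript. Another 16 deposited columns of per-sample values were not used.

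Counts of all 9540 genes kept by filterByExpr (minimum count 10, minimum total 15) were fitted in all 16 libraries with 1 mean per group, TMM factors and edgeR 4.0.16 (glmQLFit and glmQLFTest) in R 4.3.3, which left 12 residual degrees of freedom. All adjusted p-values are Benjamini-Hochberg values over all genes of this model, two-sided, called under 0.05. Log2 values and folds are its estimates with standard errors. Intervals of pooled ratios and shares are exact binomial (Clopper-Pearson) intervals at 95% and cover counting error only. The fit was tested on simulated data. The members and lists were chosen with earlier results of these data known. Results of some list genes are not reported here, though list counts include them.

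Named besides the members were up to 4 called genes with the smallest p per list, comparison and direction, lists with 3 or fewer called genes in full, genes within 100 kb, 6 genes most correlated with the summed members, and Socs3 and Il6st. Fits were repeated with DESeq2 1.42.0, with limma 3.58.1 on log2(CPM + 1), with scaling by RLE or the upper quartile, without the filter or with one on CPM (5 in 4 libraries), in the compared groups alone, with the replicate number as a block, with copies summed, with counts thinned, and without each library. Merging the closest pair of libraries of each group was chosen after seeing the data. Sequences were handled with Biopython 1.88, and tables and plots with Python 3.11.15, pandas 2.3.3, scipy 1.17.1 and matplotlib 3.10.9.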

Additional observations from a re-analysis of the deposited data

Results flagged for a closer look

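Among groups with at least 12 counts of a globin gene, no library stood far from the others of its group. Of the shares within the globin counts, the embryonic share of beta-like counts in ChimP3V3 cells under IL-6 had 1 library apart, with a gap of 0.861 of the range. The IL-6 responses of 18 genes reported here of the haem, regulator and red cell lists differed between the lines in edgeR's test of the difference at an adjusted p under 0.05. These lists held 14, 21 and 17 tested genes, and over all genes 12.4% were higher and 11.5% lower in this difference. Given as the ChimP3V3 response minus the gp130:IL-6R response on the log2 scale, the haem synthesis genes were Alas1 (-0.846), Alad (0.914), Urod (0.585), Abcb10 (1.10) and Flvcr1 (-0.947). The regulators higher in this difference were Gata1 (1.09), Klf1 (1.67), Lmo2 (0.824), Nfe2 (0.601) and Chd4 (0.250). The regulators lower in it were Bach1 (-0.768), Cbfa2t3 (-0.726), Gfi1b (-1.53), Spi1 (-0.475) and Myb (-0.292). The red cell protein genes were Gypc (0.496), Tfrc (-0.211) and Slc2a1 (-0.396).

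In 17 of 214 groups of 4 libraries checked, that share included, 1 library stood apart, in that its gap to the nearest library divided by the range of the group was above Dixon's critical value for 4 libraries (95%). Chance alone gives about 1 in 20 such groups. In gp130:IL-6R cells in medium these gaps were 0.832 for Lmo2, 0.834 for Bach1, 0.918 for Bpgm and 0.862 for Tfrc. In gp130:IL-6R cells under IL-6 they were 0.837 for Klf3, 0.910 for Tspo2 and 0.930 for Tfr2. In ChimP3V3 cells in medium they were 0.837 for Rhag and 0.851 for Slc2a1. In ChimP3V3 cells under IL-6 they were 0.876 for Cpox, 0.966 for Tmem14c, 0.864 for Hic2, 0.853 for Chd4, 0.905 for Epb42, 0.851 for Ank1 and 0.925 for Slc2a1.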

How the results depend on the processing

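Of 418 alternative values for the globin genes, 417 kept their direction and, where tested, their side of the threshold. The exception was Hba-a1 in gp130:IL-6R cells under IL-6, which passed the test with limma on log2(CPM + 1), at a log2 change of 0.79 and an adjusted p of 0.0110. The cause was not tested. The 418 include refits of the ChimP3V3 response by which the genes were chosen, and of the comparison between the lines in medium. Their number therefore carries no weight, and settings in which a gene was not fitted were not counted. For Hba-a2 in gp130:IL-6R cells, the log2 change ran from 2.19 to 3.64 in the 16 fits without 1 library. All 60 alternative values of the shares moved by less than 1 SD. The number of haem, regulator and red cell genes called lower in ChimP3V3 cells under IL-6 was 2, against 4 with no filter, 4 with only the groups compared and 1 with DESeq2, and it ranged from 1 to 4 when single libraries were left out. Of 2680 alternative values of named genes outside the globin family, 2626 kept their call and none turned direction.

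The replicate numbers were not taken as pairs, since the correlation of deviations ran from -0.15 to 0.25 over 24 pairs of libraries and passed 0.1 in 7. Between the medium groups of the lines it was 0.0646, 0.172, 0.255 and 0.129. With the replicate block, Hba-a2 in gp130:IL-6R cells changed by 2.59 (adjusted p = 8.01e-05) and Hba-a1 by 2.36 (adjusted p = 0.107). The limit of the filter given above holds for these p-values too. Deposited RPKM gave no other order of levels, being identical to TPM. Depth limited the gp130:IL-6R line, where 52 globin counts were read in 8 libraries. Counts of abundant genes grew less than in proportion to the total, and the part of this in the folds of Hba-a1, Hba-a2 and Hbb-bs was not tested.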
